A study of Ovis aries with 91 samples.

Results

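In the atria of sheep, 56 genes were higher in the right than in the left atrial appendage of every animal sampled, both in pieces of whole tissue and in cardiomyocytes, the contracting muscle cells, isolated from them. They were chosen from 12667 genes measured in both kinds of sample by 4 conditions on the deposited log2 CPM values (CPM is a read number scaled to the size of its library). The left minus right difference had to be below 0 in all 9 sheep of each table and −0.5 or lower on average in both. The mean level had to be 0 or more in both. The mean of the paced sheep had to lie within 0.8 of the mean of the controls in both. Of 11796 genes that met the level condition, 86 were below 0 in every sheep of both tables, 70 also met the size condition (0.593%), and 56 also met the limit on the paced change; 3 IDs were left out beforehand and none of them would have been among the 56. The left minus right differences over all sheep, the levels and the paced changes of these genes in the appendages are therefore given as a description, with no test. Whether a difference changed between states was tested, under a limit that the choice sets and that is given there.

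The 2 atria form from opposite sides of the embryo. The left atrium receives the pulmonary veins, whose openings are wrapped in atrial muscle, while the right atrium receives the systemic veins and holds the sinus node, the pacemaker of the heart. The right side keeps its own expression programme in the adult, and differences between the sides are studied in atrial fibrillation because the arrhythmia is often started and sustained from the left atrium, in particular its posterior wall with the pulmonary vein openings.

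Genes appear in the deposited tables by Ensembl ID alone, and 0 of the 56 IDs were found in the RefSeq gene table used here. The genes are therefore given by ID, and their functions, sequences and pathways were not examined; no protein, promoter or marker gene could be matched either, so the cardiomyocyte label was not checked against marker genes. The genes described one by one are those with the lowest mean difference in each table, those with the most reads, and those with the largest changes past the threshold in the posterior left atrium.

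Atrial fibrillation had been induced by pacing the right atrium at a high rate with an implanted device. The labels call the sheep sham or control, transition, or chronic. Whole tissue of the left and right appendages came from control sheep C1, S3 and S4, transition sheep D24, D27 and D30 and chronic sheep D15, D16 and D19, and cardiomyocytes of both appendages from C1, S3 and S4, from D23, D24 and D27, and from D16, D19 and D20. Posterior left atrium came from 6 control sheep (C1, S3, S4, G21, G32 and G36) and 6 transition sheep (D24, D27, G5, G13, G26 and G34). The titles of G5, G13, G26 and G34 say saline and those of G21, G32 and G36 say control. State and saline therefore cannot be told apart within the sheep with G numbers. C1 is labelled control and was joined with the sham sheep, as its column names in the appendage tables also do. Age and breed are not in the labels used here. There were 11 sheep in the appendage tables, 7 of them in both, and 5 of the 12 posterior left atrium sheep had also given appendage samples.

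Appendage libraries held 6.24e+06 to 2.24e+07 listed reads per whole tissue sample and 5.31e+06 to 1.24e+07 per cardiomyocyte sample; the posterior left atrium depth is unknown. The lowest read number of a right-higher gene in any library was 1 in each table, and the lowest of its libraries held 32.5 reads for the median gene in whole tissue and 24.5 in cardiomyocytes. The p-values measure the spread between the animals sampled, and nothing in the labels says more of how the animals relate. In bulk samples fewer cells of a type and less RNA per cell cannot be told apart. CPM values are not divided by gene length, so they compare samples for a gene and not genes with each other.

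The left minus right difference of the 56 genes lay between −2.34 and −0.50 in whole tissue, with a median of −1.02. In cardiomyocytes it lay between −2.27 and −0.51, with a median of −1.18. On the linear scale the right appendage held 1.42 to 5.05 times the left level in whole tissue (median 2.02) and 1.43 to 4.83 times in cardiomyocytes (median 2.27). The spread between sheep was wide for a difference of this size, with a median SD over 9 sheep of 0.50 in each table. In whole tissue 2 genes had a mean of −2 or lower, 8 between −2 and −1.5, 19 between −1.5 and −1, and 27 above −1. In cardiomyocytes these classes held 3, 7, 27 and 19 genes, so more genes passed −1 there.

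**Figure D1:**
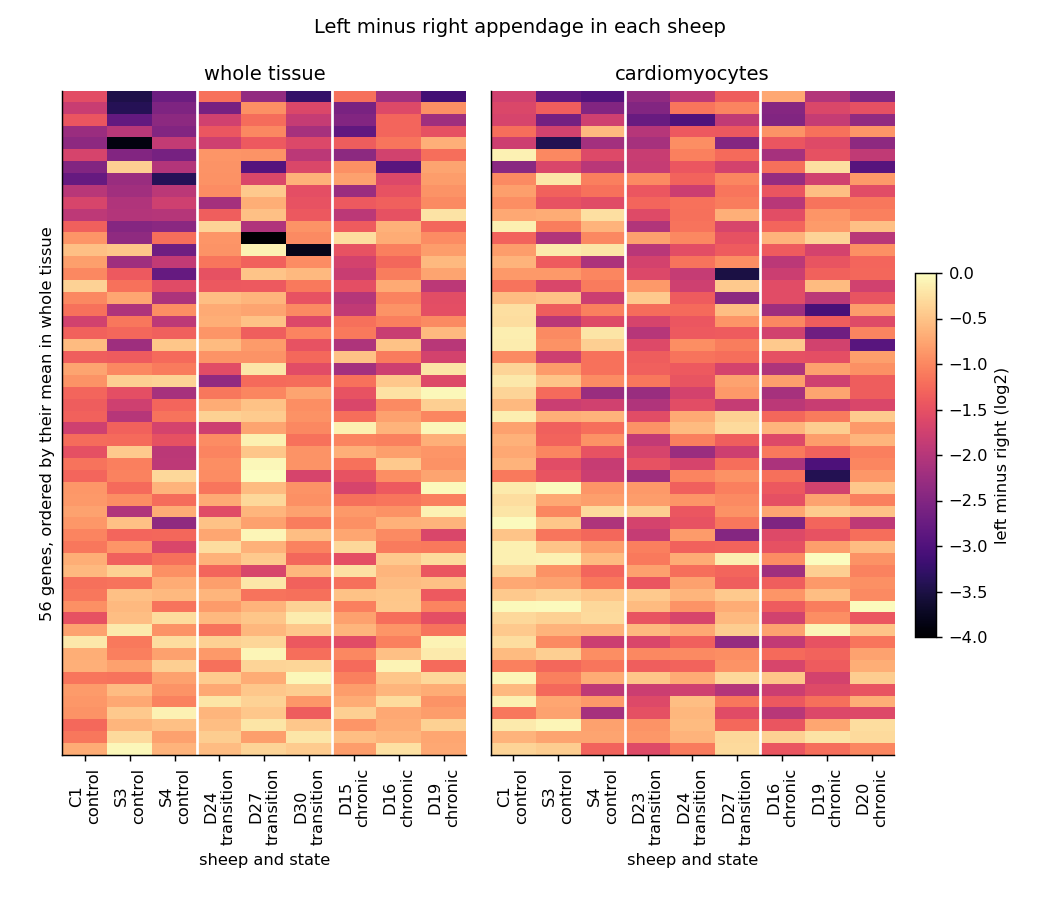
Left minus right appendage difference (log2) of the 56 genes, 1 line per gene and 1 column per sheep, in whole tissue and in cardiomyocytes, with genes in the same order in both; darker cells are further below 0. Every cell is below 0 by the choice of the genes, and the palest columns are D27 in whole tissue (median −0.62) and C1 in cardiomyocytes (median −0.57).

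Every left sample lay below every right sample for 14 of the 56 genes in whole tissue, where 0.357% of all genes did so, and for 6 of 56 in cardiomyocytes, where 0.138% did. The choice of the genes used these samples, so nothing is read from the counts. In each table alone, 1.93% of genes in whole tissue and 3.05% in cardiomyocytes were below 0 in every sheep with a mean of −0.5 or lower. Only 2 of the 56 genes had separate sides in both tables, ENSOARG00000020162 and ENSOARG00000005410, which are also the genes with the lowest mean in whole tissue and in cardiomyocytes.

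ENSOARG00000020162 had the lowest mean difference in whole tissue, −2.34 ± 0.88 (SD, n = 9), which is a 5.05-fold higher level on the right. Left appendage levels ran from 0.51 in D30 to 2.93, with a median of 2.09, and right appendage levels from 3.76 to 5.08, with a median of 4.44. In cardiomyocytes its left levels were 0.77 to 2.29 (median 1.76) and its right levels 2.58 to 4.76 (median 3.59). No left sample reached a right sample in either table. The smallest difference of a single sheep was −1.18 in whole tissue and −0.73 in cardiomyocytes. In the posterior left atrium it stood at 2.10 to 3.37 in control and 1.30 to 3.12 in transition sheep, groups that overlap.

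ENSOARG00000005410 had the lowest mean difference in cardiomyocytes, −2.27 ± 0.48 (SD, n = 9), a 4.83-fold higher level on the right, and −1.94 ± 0.57 (SD, n = 9) in whole tissue. Its right appendage levels in whole tissue varied little, from 3.99 to 4.72 with an SD of 0.24, against 1.53 to 3.10 on the left. The 3 control sheep stood at 4.33, 4.35 and 4.35 on the right. In cardiomyocytes the left levels were 0.89 to 3.48 and the right levels 3.89 in D24 to 5.33 in D19, still without overlap. In the posterior left atrium the levels were 0.28 to 1.89 over 12 sheep; that table was normalised separately from the others.

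The gene with the second lowest mean in each table did not separate the sides everywhere. ENSOARG00000007364 averaged −2.0 ± 0.83 (SD, n = 9) in whole tissue, and had left levels of −0.27 to 1.57 and right levels of 1.70 to 3.79. In cardiomyocytes the sides overlapped, because right levels of 1.62 in D24 and 1.74 in C1 lay below the highest left level of 2.36 in D19; within each sheep the right was higher by at least 1.02. ENSOARG00000016334 averaged −2.04 ± 0.71 (SD, n = 9) in cardiomyocytes and −1.79 ± 0.92 (SD, n = 9) in whole tissue. It is a gene of low depth, with 1 to 48 reads per cardiomyocyte library, and its left levels there ran from −2.33 in D27 to 0.20 in D19. Its left whole tissue levels were 1.28 to 1.74 in chronic sheep against −0.96 to 0.51 in control and transition sheep, while the right levels of all states lay between 1.67 and 3.11. It was not listed in the posterior left atrium table.

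**Figure D2:**
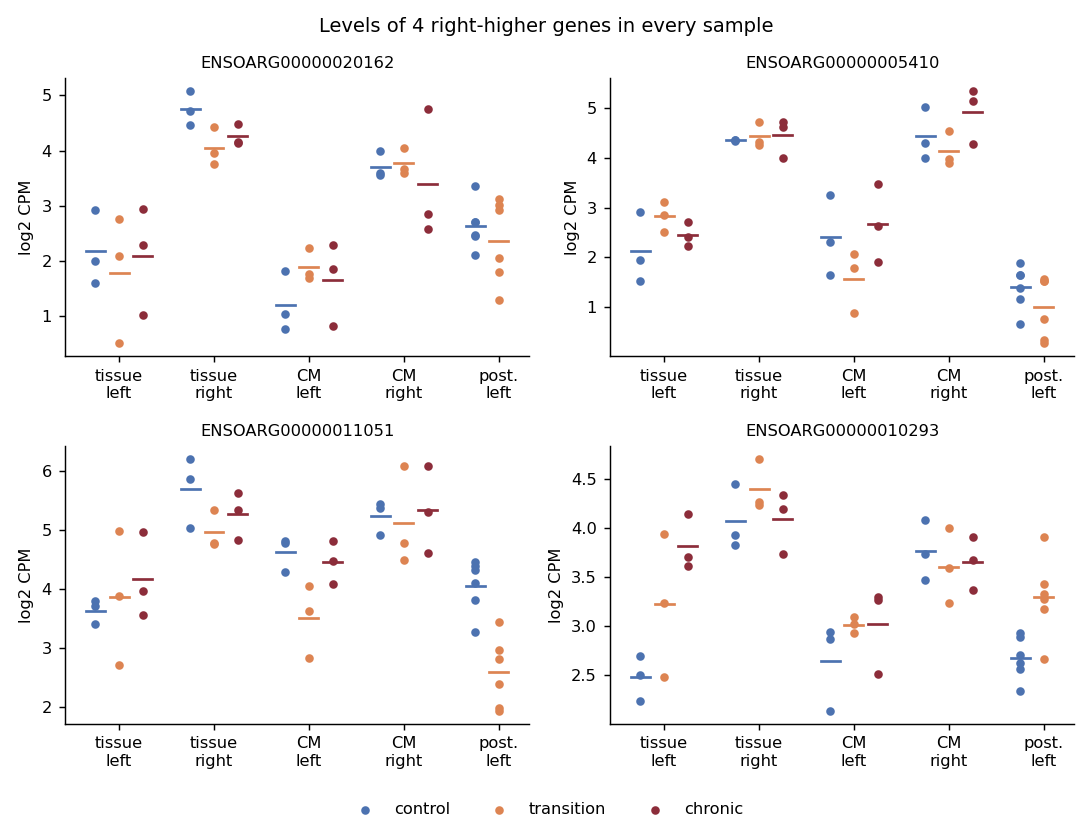
Level (log2 CPM) of 4 of the genes in every sample by region and state; points are sheep and bars are group means, CM stands for cardiomyocytes and post. left for the posterior left atrium, normalised in a table of its own. For ENSOARG00000020162 and ENSOARG00000005410 no left sample reaches a right sample, while the lower panels show the genes with the largest fall and the only rise past the threshold in the posterior left atrium.

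The 2 genes with the most reads had smaller differences, measured at far greater depth. ENSOARG00000005006 held 2959 to 15833 reads per whole tissue library and 1104 to 9350 per cardiomyocyte library. Its difference was −0.66 ± 0.30 (SD, n = 9) in whole tissue and −0.92 ± 0.46 (SD, n = 9) in cardiomyocytes, 1.58-fold and 1.89-fold higher on the right. ENSOARG00000011387 differed by −0.85 ± 0.39 (SD, n = 9) and −1.04 ± 0.29 (SD, n = 9), or 1.80-fold and 2.05-fold. Its left whole tissue levels of 7.36 to 8.03 lay just below its right levels of 8.04 to 9.20, whereas ENSOARG00000005006 overlapped between the sides in both tables.

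Genes near the limits of the choice show how it was drawn. The genes just inside and just outside the limit on the mean difference stood at −0.50 and −0.43 in whole tissue and at −0.51 and −0.43 in cardiomyocytes, where 5 and 2 genes failed that condition alone. For the paced change the nearest values were 0.66 and 0.81 in whole tissue and 0.72 and 0.94 in cardiomyocytes, with 5 and 3 genes failing that condition alone. The lowest mean level inside was 0.42 in whole tissue and 0.06 in cardiomyocytes. The choice depends on the sheep with small differences. Without D27 it would have taken 106 genes, all 56 among them.

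Across the 56 genes the mean differences in the 2 tables went together loosely, with Pearson's r = 0.615 and Spearman's rho = 0.503; over all 11796 genes these were 0.680 and 0.516. Genes are not independent points, and the tables have 7 sheep in common. The choice cut both ranges at −0.5 for the 56 genes, so their values cannot be compared with those over all genes. The difference was further below 0 in whole tissue for 26 genes and in cardiomyocytes for 30. Relative to all genes, the level in whole tissue exceeded that in cardiomyocytes of the same 7 sheep by a median of 0.08 on the log2 scale (0.02 over all genes). It exceeded it by more than 1 for 2 genes (3.57%, against 3.24% of all genes) and lay more than 1 below it for 6 (10.7%, against 4.57%).

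**Figure D3:**
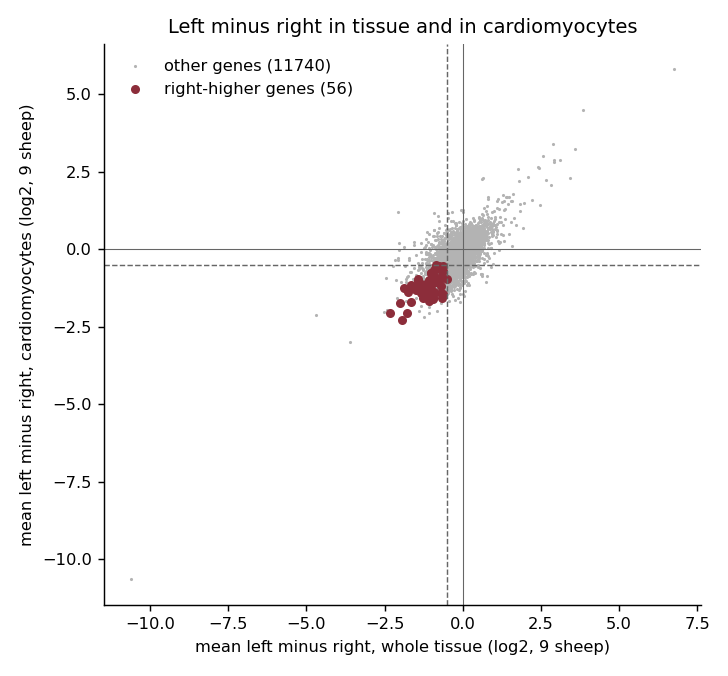
Mean left minus right difference (log2) over 9 sheep in whole tissue (horizontal) against cardiomyocytes (vertical); each point is a gene, solid lines mark 0 and dashed lines the limit of −0.5. The 56 genes fill the lower left corner by the choice, between −2.34 and −0.50 in whole tissue and −2.27 and −0.51 in cardiomyocytes; other points in that corner failed another condition.

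The per-sheep median over the 56 genes showed which animals differed most between the sides. In whole tissue it was −1.14 in C1, −1.17 in S3 and −1.26 in S4, the control sheep. It was −0.89 in D24, −0.62 in D27 and −1.03 in D30, the transition sheep, and −1.20 in D15, −0.93 in D16 and −0.89 in D19, the chronic sheep. The medians of all 3 control sheep lay below those of all 3 transition sheep, and the chronic sheep overlapped with both. The medians averaged −1.19 ± 0.06, −0.85 ± 0.21 and −1.01 ± 0.17 (SD, n = 3) in control, transition and chronic sheep.

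In cardiomyocytes the order of the states was not the same. The median was −0.57 in C1, −0.98 in S3 and −1.11 in S4. It was −1.49 in D23, −1.20 in D24 and −1.13 in D27, and −1.48 in D16, −1.30 in D19 and −1.03 in D20. Here the transition sheep lay below all controls, and C1 stood apart with 14 genes above −0.2, against 0 to 6 in the other sheep. The averages were −0.89 ± 0.28, −1.27 ± 0.19 and −1.27 ± 0.23 (SD, n = 3).

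Whether the left minus right difference of single genes depended on the state was tested with limma, with the sheep as a random effect and Benjamini-Hochberg adjustment over all genes of a table. The choice used the differences of the same sheep. A positive difference in any sheep kept a gene out, which limits how far a difference could shrink. The counts and medians below are therefore a description. Shares over all genes stand beside the counts for reference, and no excess or lack is read from them. In whole tissue 0 of 56 genes passed at 0.05 for transition against control, where 3 of all genes did (0.0243%). An unadjusted p under 0.05 was found for 9 of 56 (16.1%) and for 7.5% of all genes. The difference was closer to 0 in transition sheep for 43 genes and further from 0 for 13, with a median of 0.38. For chronic against control 0 of 56 passed and 0 of all genes did (0%), with a median of 0.25 and 39 genes closer to 0. Here 4 of 56 (7.14%) had an unadjusted p under 0.05, against 6.61% of all genes. With voom weights on recovered reads 0 of 56 passed in both, where 0.00811% and 0% of all genes did.

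In cardiomyocytes the medians had the other sign. For transition against control 0 of 56 genes passed and 0 of all genes did (0%), with a median of −0.37, 42 genes being further from 0. Here 7 of 56 (12.5%) had an unadjusted p under 0.05, against 6.36% of all genes. For chronic against control 0 of 56 passed, where 44 of all genes did (0.358%), with a median of −0.37, 46 genes being further from 0. An unadjusted p under 0.05 was found for 4 of 56 (7.14%), against 14.2% of all genes. Voom also gave 0 of 56 in both, where 0% and 0.326% of all genes passed. Without C1 these medians were −0.22 and −0.16, and the second was −0.24 without D16 and −0.56 without S4. Whether the change of the difference itself differed between tissue and cardiomyocytes was not tested, since the tables were normalised separately.

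ENSOARG00000010293 gave the lowest p for chronic against control in whole tissue, a change of the difference of 1.32 ± 0.34 (SE) with adjusted p = 0.430. Its left levels were 2.24 to 2.70 in the control sheep, 2.48, 3.94 and 3.24 in transition sheep D24, D27 and D30, and 3.61 to 4.14 in the chronic sheep. Its right levels overlapped between the states, at 3.82 to 4.45, 4.24 to 4.70 and 3.73 to 4.33. In cardiomyocytes its left levels were 2.13 to 2.94 in control and 2.51 to 3.30 in chronic sheep, which overlap.

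The median of the 56 genes was also followed on each side. In whole tissue it was lower in transition than in control sheep on the right, by −0.36 with 43 genes below 0, and differed by 0.07 on the left. In cardiomyocytes it was lower in transition than in control sheep on both sides, by −0.68 on the left (45 genes below 0) and −0.27 on the right (47 below 0). For chronic minus control it was 0.18 on the left and 0.00 on the right in whole tissue, and −0.12 on the left and 0.24 on the right in cardiomyocytes. Over all genes these medians lay between −0.02 and 0.01. The paced changes entered the choice of the genes, so these values are a description.

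Chronic against transition, averaged over both sides, was not itself a condition of the choice. The values of these sheep entered the other conditions, and the limit on the paced change bounds how far both states together could move. Genes are not independent points either. The counts and medians below are therefore a description, and no excess or lack is read from them. In cardiomyocytes the median of the 56 genes was 0.54 higher in chronic sheep (−0.01 over all genes), with 47 genes above 0 and 9 below. In limma 0 of 56 genes passed, where 0.0244% of all genes did, and 19 of 56 (33.9%) had an unadjusted p under 0.05, against 8.32% of all genes. Voom also gave 0, where 0.0163% of all genes passed. ENSOARG00000011387 had one of the lowest p-values, with 1.03 ± 0.26 (SE) and adjusted p = 0.315. Without D23 the median was 0.96 and 2 genes passed, where 0.806% of all genes did, and without D27 the median was 0.24. In whole tissue the median was 0.27, with 41 genes above 0. There 0 of 56 passed in limma (0.114% of all genes) and in voom (0.0324% of all genes). Without the random effect of sheep 2 of 56 passed, 1 higher and 1 lower in chronic sheep (0.673% of all genes). An unadjusted p under 0.05 was found for 13 of 56 (23.2%), against 10.8% of all genes. Without D16 this median was 0.15, with 35 genes above 0, and on library totals it was 0.18.

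**Figure D4:**
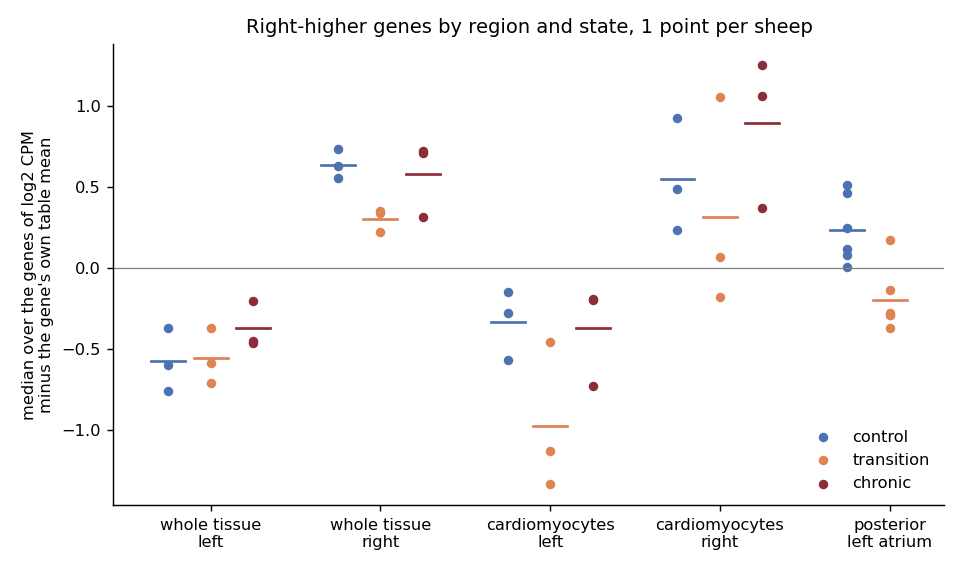
Median over the genes of the level in a sample minus the gene's own mean in that table (log2), by region and state; points are sheep and bars are group means. Cardiomyocyte samples of a group spread furthest, from −1.34 to −0.46 in left transition and from −0.18 to 1.06 in right transition sheep.

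The spread between sheep of a state was larger for these genes than for the typical gene, and most so in cardiomyocytes. The median SD within a state was 0.56 on the left and 0.62 on the right in cardiomyocytes, against 0.26 and 0.29 over all genes. In whole tissue it was 0.43 and 0.34, against 0.26 and 0.30. The genes compared were not matched for level, and the part of read number in this spread was not tested. Within a side, the median over the genes relative to their own means varied between sheep of the same state. In right cardiomyocytes it was 1.06 in D23 but 0.07 in D24 and −0.18 in D27, the other transition sheep. It was 1.25 in D16, 1.06 in D19 and 0.37 in D20, and 0.23 to 0.93 in the controls. In left cardiomyocytes D24 and D27 were lowest, at −1.13 and −1.34, against −0.46 in D23.

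The 500 genes with the highest level in whole tissue relative to cardiomyocytes (tissue-enriched) and the 500 with the lowest (cardiomyocyte-enriched), both chosen from these data without the 56, also varied between these samples. In the right cardiomyocytes the median of the tissue-enriched genes relative to their own means was 0.34 in D16, 0.28 in D19 and 0.31 in D23, and −0.11 in D24 and −0.14 in D27. That of the cardiomyocyte-enriched genes was 0.08, 0.20 and 0.15 in the first 3 of these samples, and 0.01 and −0.26 in the other two. Both lists thus stood lower in D24 and D27 than in D16, D19 and D23. In the right cardiomyocytes of S4, S3, C1 and D20 the tissue-enriched genes stood at 0.10, −0.03, 0.05 and 0.13. The cardiomyocyte-enriched genes stood there at 0.30, 0.24, 0.14 and −0.13, and the 56 genes at 0.93, 0.49, 0.23 and 0.37. In whole tissue the tissue-enriched genes stood at 0.25 in the right appendages of all 3 control sheep, with the 56 at 0.55 to 0.73. In their left appendages they stood at −0.07 to −0.04, with the 56 at −0.76 to −0.37. In the right whole tissue of D15 they stood at −0.07 with the 56 at 0.71, and in the left cardiomyocytes of C1 at 0.24 with the 56 at −0.28. The part of either list in the left minus right differences and in the changes between states was not tested.

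The posterior left atrium was not used to choose the genes, and 51 of the 56 were listed there, all past the level filter. For the 5 sheep sampled in both tables, levels were set relative to the median of all shared genes, since the tables were normalised separately. The appendage values of these sheep did enter the choice, which fixed a gap between the sides for these genes beforehand. The shares below are therefore a description and no independent support. The level was nearer to the left than to the right appendage for 45 of 51 genes (88.2%), against 60.8% of all genes and 28 of 38 (73.7%) of the genes that were higher on the left by the same conditions with the sides exchanged. The median log2 difference was 0.01 from the left and −0.97 from the right appendage. In single sheep 39 to 44 of the 51 genes were nearer to the left, against 5666 to 6815 of 11753 over all genes and 23 to 31 of the 38 left-higher genes.

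For 49 of the 51 genes the posterior left atrium lay below the right appendage, where 5984 of 11753 over all genes did. The 2 exceptions, named after their values were seen, were ENSOARG00000001111, at 0.90 ± 0.41 (SD, n = 5) above the right appendage, and ENSOARG00000001748, at 0.06 ± 0.42 (SD, n = 5). ENSOARG00000005410 was far below the right appendage (log2 difference −3.02 ± 0.62, SD, n = 5) and also below the left (−1.08 ± 1.12, SD, n = 5). For 25 of the 51 genes the posterior left atrium lay below the left appendage as well. Over all genes 5847 of 11753 lay below the left appendage, a similar share, so nothing is read from this count.

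In the posterior left atrium 16 of the 51 genes fell from control to transition sheep and 1 rose past an adjusted p of 0.05 in limma. Over all genes 8.68% fell and 8.84% rose (17.5% together), so the fallen genes made up 31.4% of the 51 against 8.68% in the background. The median change was −0.38 (−0.01 over all genes), with 42 genes below 0 and 9 above, and 25 of 51 (49.0%) had an unadjusted p under 0.05, against 31.2% of all genes. Of the genes higher on the left by the mirrored conditions 38 were listed there; 7 increased and 3 decreased, with a median of 0.06, and the difference between the 2 lists was not tested. Without G32, D27 or D24 the count that fell was 7, 9 and 9, where 5.53%, 6.15% and 6.24% of all genes fell. After quantile normalisation 12 fell, where 8.54% of all genes did, with a median change of −0.24 and 36 genes below 0.

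**Figure D5:**
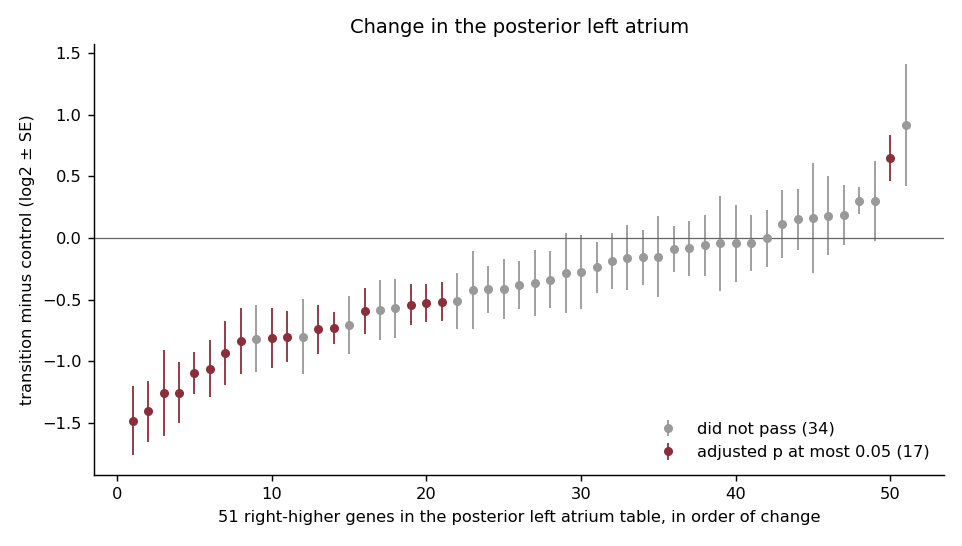
Change from control to transition in the posterior left atrium (log2, transition minus control, ± SE) of the 51 right-higher genes listed there, in order of the change, with 6 sheep in each group; dark points passed an adjusted p of 0.05. The 16 genes that fell changed by −1.48 to −0.52, and the 1 that rose by 0.65.

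ENSOARG00000011051 had the largest fall, −1.48 ± 0.28 (SE), with an adjusted p of 0.00306 in limma. Control sheep stood at 3.26 in C1, 3.81 in G21, 4.11 in G36, 4.33 in S3, 4.39 in G32 and 4.46 in S4. Transition sheep stood at 1.92 in G13, 1.97 in G26, 2.39 in D24, 2.81 in D27, 2.96 in G5 and 3.45 in G34. The groups overlapped only through C1 and G34. The change was −1.53 in the G sheep alone, none of which gave appendage samples, and −1.41 in the sheep with other names, and leaving out any sheep kept it between −1.64 and −1.36. In the appendages its transition minus control difference was 0.23 on the left and −0.74 on the right in whole tissue, and −1.13 and −0.13 in cardiomyocytes.

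ENSOARG00000018434 fell by 1.41 on the log2 scale (−1.41 ± 0.25, SE) with an adjusted p of 0.00202 in limma. It stood at 2.27 in S4, 2.70 in G36, 3.0 in G21, 3.10 in G32 and S3 and 3.28 in C1 among the controls. The transition sheep were at 0.92 in D24, 1.19 in G13, 1.37 in D27, 1.43 in G34, 2.13 in G5 and 2.27 in G26. All transition sheep but G26 were below every control, and G26 was level with S4. The change was between −1.52 and −1.28 whichever sheep was left out. Its appendage values were 0.20 on the left and −0.47 on the right in whole tissue, and −0.68 and −0.62 in cardiomyocytes.

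ENSOARG00000005006, the gene with the most reads, fell by less but with a small error, −0.73 ± 0.13 (SE) with an adjusted p of 0.00178 in limma. Control sheep stood at 8.58 in C1 and at 8.85 to 9.26 otherwise. Transition sheep stood at 8.59 in G5 and at 7.98 to 8.33 otherwise, so only C1 and G5 met. In the G sheep alone the change was −0.75, with an adjusted p of 0.0209. Of the other genes described above, ENSOARG00000011387 (−0.38 ± 0.19, SE, adjusted p = 0.196), ENSOARG00000005410 (−0.42 ± 0.32, SE, adjusted p = 0.40), ENSOARG00000020162 (−0.28 ± 0.33, SE, adjusted p = 0.603) and ENSOARG00000007364 (0.30 ± 0.32, SE, adjusted p = 0.572) did not pass.

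ENSOARG00000010293 was the gene that rose, by 0.65 ± 0.19 (SE) with an adjusted p of 0.0299 in limma. Its control levels were 2.34 in G32, 2.57 in C1, 2.62 in G21, 2.70 in G36, 2.88 in S4 and 2.93 in S3. Its transition levels were 2.67 in G13, 3.18 in D24, 3.28 in G26, 3.33 in G5, 3.42 in D27 and 3.90 in G34. G13 alone lay within the range of the controls. The call was lost without D27, G5, G21, G26 or G32, with changes between 0.52 and 0.75 over all sheep left out. In the appendages its transition minus control difference was 0.74 on the left and 0.33 on the right in whole tissue, and 0.37 and −0.15 in cardiomyocytes.

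Of the 16 fallen genes 7 kept their call in every fit that left out a sheep, ENSOARG00000011051, ENSOARG00000018434 and ENSOARG00000005006 among them. In the G sheep alone (G21, G32 and G36 against G5, G13, G26 and G34) these 3 genes passed, where 2.5% of all genes fell. The median over the 51 genes was −0.44 there, and state and saline cannot be told apart in these sheep. In the sheep with other names (C1, S3 and S4 against D24 and D27) 2 genes fell, where 0.931% of all genes did, with a median of −0.56. All 16 had a negative change in each set of sheep. They were called on both sets together, which makes this likely, so it is no separate support. Every transition sheep lay below every control sheep for 3 of the 51 genes, where 3.28% of all genes did so. These were ENSOARG00000009887, ENSOARG00000007615 and ENSOARG00000013176, named after their values were seen, with changes of −1.25, −1.09 and −1.06. The median over the genes relative to their own means was 0.01 to 0.51 in the control sheep and −0.37 to −0.14 in the transition sheep other than G5, which stood at 0.17.

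The tissue-enriched genes also differed between the groups. Their median relative to their own means was 0.11 to 0.24 in control and −0.33 to −0.03 in transition sheep, without overlap. Their part in the fall of the 16 genes was not tested.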

How the data were processed

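Deposited log2 CPM values of whole tissue, cardiomyocytes and posterior left atrium were used as the authors gave them, in 3 separately normalised tables. Tools named in the submitters' processing notes are RSEM, cutadapt, bcl2fastq and limma, with no version; the aligner, build and annotation are not named there. Technical replicates in the labels were merged before deposit. Appendage columns were tied to a sheep and region by name. Posterior left atrium columns do not carry the sheep names used here. They were tied to samples through the sample titles, and the sheep was taken from the labels. In the appendage tables all 237366 and 238716 values gave whole reads within 0.05 reads (log2 of reads plus 0.5 over a scaled library size; scaling 0.828 to 1.14). In the posterior left atrium 10.8% of 3626 low values did, so its depth is unknown. No libraries were copies (chi-square per degree of freedom 10.5 or more between any pair of appendage libraries).

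Changes were tested in limma 3.58.1 (R 4.3.3, trend option) on genes with a mean log2 CPM of 0 or more (12333, 12279 and 12035), a Benjamini-Hochberg threshold of 0.05 and two-sided p-values. Appendage models held 6 group means with the sheep as a random effect, a pairing taken from the sheep names in the labels (consensus correlation 0.294 in whole tissue, 0.470 in cardiomyocytes); that of the posterior left atrium had terms for state and for set of sheep (G numbers or other names). No test was made across tables. The code was tested on simulated data. The genes, lists, tests and naming rule (lowest mean difference, 2 per table; most reads, 2; largest change past the threshold, 2 per direction) were chosen with earlier results of these data known. How reads on the opposite strand or shared between gene copies were counted is not given in these sources.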

Additional observations from a re-analysis of the deposited data

How the results depend on the processing

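The 4 tests of the left minus right difference between states gave 0 genes under every alternative: no replicate block, no level filter, quantile normalisation, library totals (added after the data were seen), a pseudocount of 1 CPM, sample quality weights, voom and each sheep left out. The share of all genes that passed was 0% to 1.37%, highest for chronic against control in cardiomyocytes with quality weights. No lack is read from the 0 genes. For chronic against transition, whole tissue gave 2 genes with no replicate block for the sheep, 1 higher and 1 lower (0.673% of all genes passed). With quality weights it gave 4, of which 1 was higher and 3 were lower (2.85%, median change 0.17). With a sheep left out it gave 0 to 1, the 1 without D19 (0.154%). Cardiomyocytes gave 1 with quality weights (0.309%) and 0 to 2 with a sheep left out, the 2 without D23 (0.806%). These counts are not read as results about the genes. In the posterior left atrium 3 genes passed in the G sheep alone (6.07% of all genes in either direction) and 2 in the other sheep alone (2.02%; ENSOARG00000009887 and ENSOARG00000013176, named after their values were seen), 7 to 17 with a sheep left out (7 without G32, 9 without D27 and 10 without D24), and 19 without a term for the set of sheep (19.7%). In the other appendage tests dropping the block for the sheep changed no call among the 56. The choice gave 53 to 106 genes with a sheep left out, 50 after quantile normalisation (48 of the 56) and 70 on library totals (54 of the 56), a scaling that moves the median left minus right difference of all genes by −0.12 in whole tissue. The median change kept its sign under every alternative in all 7 tests. With the posterior left atrium values not centred, 48 of 51 genes lay nearer to the left appendage, and in control sheep alone 44. No share over all genes stands beside these counts, so nothing is read from them. Differences of genes with a few reads per library are poorly resolved.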
